A study of Mus musculus with 32 samples.

Results

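The genes described here encode the proteins of the cytosolic ribosome. They were followed in cultured mouse cardiac fibroblasts that carried a floxed Pkm2 allele and received iCre or LacZ, then a growth factor or cytokine. The set was chosen by gene symbol: protein-coding genes named Rpl, Rps or Rplp followed by a number, plus Rpsa, with at least 10 reads in at least 4 libraries. The rule gave 81 of the 55414 genes in the table. They fall into 43 genes of the large (60S) subunit, 31 of the small (40S) subunit, 3 of the P stalk (Rplp0, Rplp1, Rplp2) and 4 paralogs named after another member (Rpl7l1, Rpl22l1, Rpl36al, Rps27l). Of the 90 symbols that matched, 6 were not protein-coding and 3 were too low: Rpl39l reached 10 reads in 2 libraries, Rpl3l had at most 2 reads, and Rpl10l had 0. Just inside the rule, Rpl22l1 averaged 956 reads per library and Rpl36al 1255, so none of the 81 sat near the limit and all were tested.

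Poly(A) RNA from 32 libraries was sequenced, 4 in each of 8 groups. Per the titles, iCre cells and LacZ cells were each given FGF (bFGF, 20 ng/ml), ILB (IL-1b, 15 ng/ml), TGFB (TGFb, 10 ng/ml) or SS. SS is not spelled out, but the protocol speaks of 24 h under serum starvation with or without the agents, so SS served as the reference condition. All groups shared the genotype C57BL/6J_Pkm2fl/fl, passage 1, and an earlier growth medium that held serum and bFGF. How iCre and LacZ were delivered is not given in the labels, nor whether equal replicate numbers came from the same mouse or isolation. The p-values below therefore measure spread between libraries whose separate origin is not stated. The protocol text names TAK1fl/fl mice and a TNFa arm, neither of which the titles carry. For the 16 LacZ libraries the treatment tag names another arm than the title does, and the titles were used.

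A ribosome is built from ribosomal RNA and a fixed set of these proteins, so their genes are usually expressed together. Their mRNAs begin with a run of pyrimidines at the cap, the 5′ terminal oligopyrimidine or TOP motif, through which mTORC1 and the protein LARP1 control their translation. Ribosome supply rises when cells grow. In cardiac fibroblasts, TGFb is the classic agent of conversion into matrix-secreting myofibroblasts, IL-1b is an inflammatory cytokine and bFGF a mitogen.

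The start sites of 61 of the 81 genes could be read from RefSeq promoters on GRCm38.p6. These genes had 72 promoters there, and 1 was used per gene, also for the 9 with more than 1. The other promoters were all counted, so the shares below compare genes with promoters. A run of at least 8 C or T bases on the coding strand lay within 5 bases of the start in 21 of the 61 (34.4%), against 9.67% of 32779 other promoters. On the same strand a run of at least 8 A or G bases lay there in 3.28% of the members' promoters and 10.9% of the others. The letters CTTTC lay in the 30 bases around the start in 24.6% of the members and 4.01% of the other promoters, and on the opposite strand in 4.92% and 3.6%. CCGGAAG, a form of the ETS-family motif, lay in the 300 bases around the start in 26.2% of the members and 4.73% of the others, with 14.8% and 4.77% on the opposite strand. AAGATGGC, a core of the YY1 motif, lay in 4.92% and 1.68%, with 3.28% and 1.07% on the opposite strand. CTTTC can lie inside a C or T run, and CCGGAAG and AAGATGGC can overlap. A match is a match of letters only.

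The 30 bases around the start (15 on each side, coding strand, 5′ to 3′, capitals marking the longest C or T run within 5 bases of the start) are printed for 4 members with a long run and for 4 whose mRNA values stand out in the results. Rpl7a lies at chr2:26910792-26910821 (+), Rpl14 at chr9:120571502-120571531 (+), Rpl38 at chr11:114668565-114668594 (+) and Rps6 at chr4:86857353-86857382 (−).
Rpl7a: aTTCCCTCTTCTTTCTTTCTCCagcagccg
Rpl14: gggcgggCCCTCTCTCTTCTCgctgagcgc
Rpl38: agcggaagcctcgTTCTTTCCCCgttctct
Rps6: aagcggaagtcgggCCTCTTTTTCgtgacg
Rps2 lies at chr17:24720048-24720077 (+), Rpl36al at chr12:69184053-69184082 (−), Rpl7l1 at chr17:46782642-46782671 (−) and Rps27 at chr3:90213634-90213663 (−).
Rps2: aggcagtcgagatctcgcgCTTCTTggagc
Rpl36al: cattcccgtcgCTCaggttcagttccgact
Rpl7l1: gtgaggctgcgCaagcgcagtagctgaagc
Rps27: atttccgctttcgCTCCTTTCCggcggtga
The paralogs Rpl36al and Rpl7l1 had runs of 3 and 1 bases at the RefSeq start, and the paralogs Rpl22l1 and Rps27l runs of 10 and 9. Rps27 had 9 and Rpl7a 21, but Rpl10 and Rpl22 had 1 each, so both kinds of member held long and short runs. The RefSeq start used for Rps2 lay 1947 bases from the gene start in GENCODE. For Rps24, Rpl18 and Rps10, with runs of 9, 10 and 13, this distance was 3553, 2614 and 1425 bases.

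Library totals were 20736203 to 34995038 reads, of which the 81 genes took 3.12% to 4.94%. Levels are given in CPM, read counts scaled to a common library size with TMM factors. Per kilobase of merged exons and averaged over the 8 groups, the stalk genes Rplp1 (1840 CPM per kb) and Rplp0 (1090 CPM per kb) were the highest members. The paralogs Rpl22l1 (18 CPM per kb), Rpl7l1 (21.6) and Rpl36al (34.7) were the lowest. Scaled to the principal transcript, Rplp1 kept 1840 CPM per kb and Rps12, Rplp0 and Rps2 followed at 1330, 1330 and 1030 CPM per kb. On that scale Rpl7l1 (57.7), Rpl22l1 (64.7) and Rpl36al (89.2 CPM per kb) were again the lowest. The order depends on the length used: 2 of the 5 highest genes were shared by both. Between the lowest and highest group mean, Rps2 and Rpl36al each spanned 0.95 on the log2 scale and Rpl13 0.71, the widest ranges of the set. Rps27 (0.20), Rpl22 (0.21) and Rpl10 (0.25) were the narrowest. The highest group mean was in LacZ TGFB for 80 members and in iCre TGFB for Rpl7l1. These ranges and means include LacZ TGFB replicate 2, which held the highest value of the 32 libraries for 79 members.

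Pkm, the floxed gene, averaged 533 ± 177 CPM in iCre SS and 786 ± 247 CPM in LacZ SS (SD, n = 4 each). It was lower in iCre in 16 of 16 pairs of equal condition and replicate number, by −0.50 ± 0.11 (log2, SE) on average. Its adjusted p was 0.0744 in edgeR's quasi-likelihood test, which did not use the pairing by replicate number. A count over the whole gene does not separate the exons of its isoforms. Fibroblast markers summed to 20800 to 66300 CPM. Leukocyte markers summed to 399 to 1040 CPM in the 8 libraries numbered 3 and 34.0 to 92.2 CPM in those numbered 4. No marker on the 7 lists used was at 0 in every library, while 9 markers, among them the cardiomyocyte genes Myh6, Actc1, Myl2 and Myh7, were too low to test. In bulk samples fewer cells of a type and less RNA per cell cannot be told apart.

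LacZ TGFB replicate 2 stood apart in the ribosomal protein genes. All 81 members were highest in it among the 4 LacZ TGFB libraries, against 30.9% of all 16760 genes tested. Their median lay 0.48 (log2) above the mean of the other 3 libraries, against 0.03 for all genes, and 79 members had their highest value of all 32 libraries there (12.8% of all genes did). Rpl3 and Rpl7l1 were the exceptions. In the same library the mitochondrial ribosomal protein genes had a median of 0.34 above the other 3, the other TOP mRNAs 0.34, and the genes of rRNA synthesis and ribosome assembly 0.09. Its depth (22195656 reads), its leukocyte sum (103 CPM) and its mitochondrial genome share (0.53%) lay inside the range of the other libraries. Its cardiomyocyte marker sum was 36.6 CPM, against 17.6, 9.59 and 19.5 CPM in LacZ TGFB replicates 1, 3 and 4. Its Schwann sum (3.3 CPM) was the lowest of the group, and its fibroblast, endothelial, mural and mesothelial sums lay inside the group's range. The part of these in its high values was not tested. Counts of members called that rest on this library are given with and without it, as are the LacZ TGFB against SS values of the members named below. For the counts by class, the members whose call was lost without it are named instead.

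Summed over the 81 genes, the level was 42371, 38596, 38712 and 35652 CPM in iCre TGFB and 31019, 32065, 31943 and 29165 CPM in iCre SS. It was 40737, 53935, 40573 and 36083 CPM in LacZ TGFB and 32208, 30300, 34132 and 28709 CPM in LacZ SS. In both vectors every TGFB library lay above every SS library. The FGF libraries held 33185 to 36707 CPM in iCre and 33304 to 35862 CPM in LacZ, and the ILB libraries 33512 to 34690 CPM in iCre and 29909 to 34323 CPM in LacZ. As a share of all reads, with no TMM factor, the values were closer: 3.75%, 3.38%, 3.59% and 3.48% in iCre TGFB, against 3.14%, 3.41%, 3.28% and 3.41% in iCre SS. In LacZ they were 3.63%, 4.94%, 3.69% and 3.25% in TGFB and 3.26%, 3.12%, 3.42% and 3.17% in SS. On this scale the groups overlapped in both vectors. The FGF libraries held 3.32% to 4.29% in iCre and 3.32% to 3.88% in LacZ, and the iCre FGF mean (3.69%) lay above the iCre TGFB mean (3.55%).

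**Figure D1:**
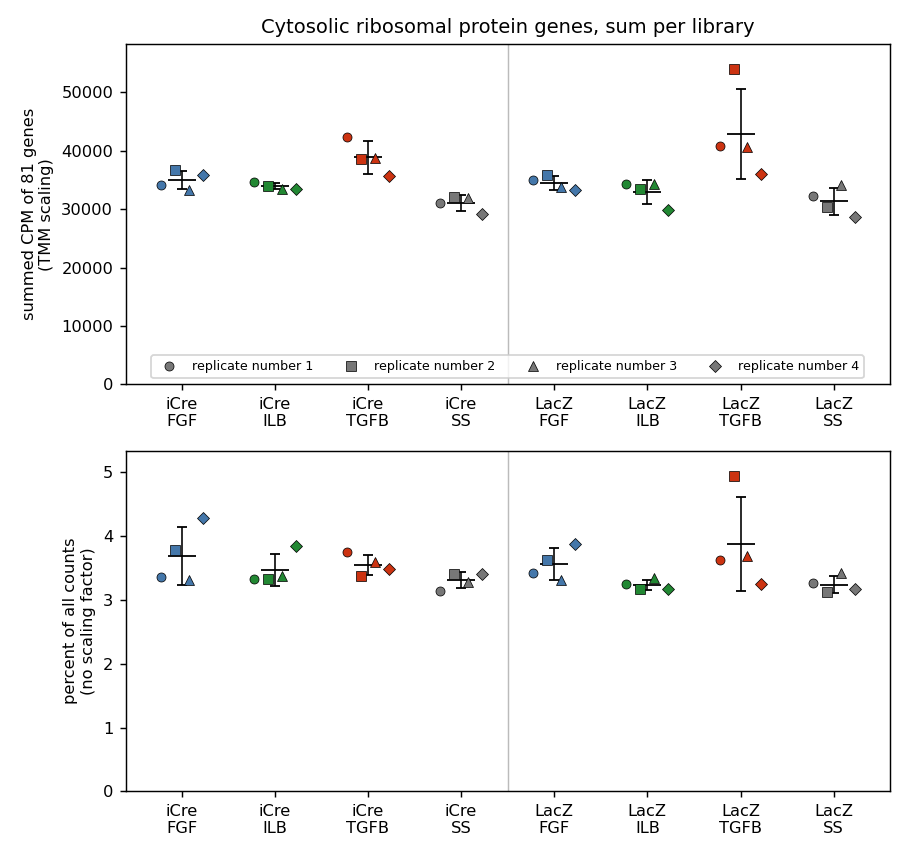
Summed level of the 81 ribosomal protein genes in each library, as CPM with TMM scaling (top) and as percent of all counts with no scaling factor (bottom), by group; symbols are libraries by replicate number, and lines are means with SD (n = 4). With TMM, TGFB libraries sit at 35652 to 42371 CPM in iCre and 36083 to 53935 CPM in LacZ, above the SS libraries of the same vector, whereas the percentages overlap; LacZ TGFB replicate 2 is the highest of the 32 in both panels.

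The comparison of TGFB with SS asked how the set stood after 24 h of TGFb. In iCre cells 56 of the 81 genes rose and 0 fell at an adjusted p under 0.05 (edgeR quasi-likelihood test, Benjamini-Hochberg over 16760 genes), with 20.2% of all genes called higher and 18.1% lower. The median member was 0.30 higher (log2, a fold of 1.23), with members between 0.04 (Rps27) and 0.76 (Rpl36al). In LacZ cells 79 rose and 0 fell, against 23.4% of all genes higher and 22.9% lower, with a median of 0.43 (a fold of 1.35) and a range of 0.17 (Rps27) to 0.89 (Rpl36al). All 81 members had a difference above 0 in both vectors, as did 47.0% of all genes in each. Without LacZ TGFB replicate 2, 67 members rose in iCre and 63 in LacZ, where the median was 0.31. Without iCre TGFB replicate 1, whose summed level was the highest of its group (42371 CPM), 35 rose in iCre. Shares of all genes called in these left-out fits are not given. The iCre and LacZ comparisons share no library, but equal replicate numbers paired libraries across vectors, so the comparisons are not independent. In both vectors 56 members rose (62 without LacZ TGFB replicate 2). Since 79 of the 81 rose in LacZ, this overlap was nearly fixed by the iCre count. How many of all genes rose in both was not counted. Across the 81 genes the log2 fold changes of the 2 comparisons had a Pearson r of 0.95. This is a description over genes that share libraries within each comparison, with no value for all genes beside it.

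These counts rested on the scaling. TMM factors were 0.8755 to 0.9765 in TGFB libraries and 1.004 to 1.169 in SS libraries, and when libraries were scaled by total counts alone the median of all genes shifted to −0.268 in iCre and −0.258 in LacZ, against −0.046 and −0.058 with TMM. The median member stood 0.35 above the median gene in iCre and 0.49 above it in LacZ under both scalings. A change of scaling shifts all genes of a comparison by nearly the same amount. This agreement was therefore fixed in advance and is no check. With total counts 6 members rose in iCre and 38 in LacZ, against 11.4% and 15.2% of all genes. The share of members that rose thus lay below that of all genes in iCre and above it in LacZ. A difference above 0 was found for 65 and 80 members, with no share of all genes given for that scaling. The share of all calls that rose was 29.3% in iCre and 33.5% in LacZ with total counts, and 52.6% and 50.6% with TMM.

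Groups did not overlap, with all TGFB libraries above all SS libraries, for 57 members in iCre (16.4% of all genes) and 52 in LacZ (21.1% of all genes). Taken by replicate number, the median member was 0.43, 0.25, 0.26 and 0.28 higher in iCre TGFB and 0.31, 0.85, 0.24 and 0.32 higher in LacZ TGFB for numbers 1 to 4. By class, in iCre 30 of 43 genes of the 60S subunit rose (median 0.29), 21 of 31 of the 40S subunit (0.30) and 3 of 3 of the stalk (0.41). In LacZ these counts were 42 of 43 (0.42), 30 of 31 (0.43) and 3 of 3 (0.53). Of the paralogs 2 of 4 rose in iCre and 4 of 4 in LacZ. These LacZ counts by class include LacZ TGFB replicate 2, without which 63 members rose in LacZ. The calls then lost in the 60S subunit were Rpl10, Rpl10a, Rpl17, Rpl21, Rpl22, Rpl32, Rpl35a, Rpl36 and Rpl39. In the 40S subunit they were Rps12, Rps15, Rps19, Rps20, Rps4x and Rps7, and among the paralogs Rpl22l1. The stalk genes stayed called. Differences between classes were not tested. Leukocyte markers had medians of −0.50 in iCre and −0.74 in LacZ under TGFB, with 0 of 12 passing, and their part in the result was not tested. Of 9 fibroblast markers 1 rose and 4 fell in iCre and 1 rose and 5 fell in LacZ, led by the proteoglycan gene Lum at −2.18 and −2.33. Cardiomyocyte markers summed to 8.08 to 10.1 CPM in iCre TGFB and 22.4 to 91.9 CPM in iCre SS, and to 9.59 to 36.6 CPM in LacZ TGFB and 44.7 to 128 CPM in LacZ SS. Endothelial markers summed to 6.18 to 8.09 CPM in iCre TGFB and 16.1 to 22.1 CPM in iCre SS, and to 5.6 to 10.7 CPM in LacZ TGFB and 16.2 to 34.1 CPM in LacZ SS. Both sums were lower in every TGFB library than in any SS library of the same vector. The mitochondrial genome took 0.411% to 0.728% of reads in iCre TGFB and 0.701% to 1.1% in iCre SS, and 0.512% to 0.655% in LacZ TGFB and 0.681% to 0.799% in LacZ SS. The part of these in the result was not tested.

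**Figure D2:**
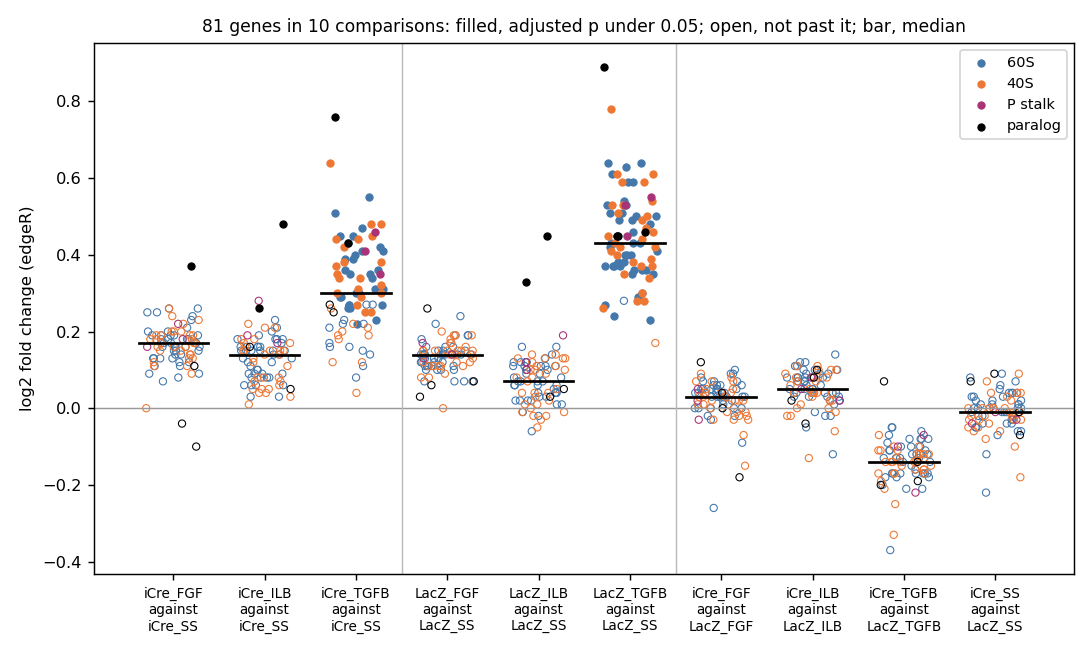
Log2 fold change (edgeR, TMM scaling) of each of the 81 genes in 10 comparisons, coloured by class; filled points have an adjusted p under 0.05, open points do not, and bars are medians. All 81 TGFB against SS values lie above 0 in each vector, with medians of 0.30 in iCre and 0.43 in LacZ. With total counts 65 and 80 lie above 0, with no share of all genes given. No point of iCre against LacZ is filled.

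Rps2, a small-subunit protein near the mRNA entry channel (ENSMUSG00000044533, chr17:24718116-24721929), was the member of the core set that moved most. It had 1447.7, 1265.2, 1261.7 and 1024.4 CPM in iCre TGFB and 811.5, 853.8, 812.3 and 729.9 CPM in iCre SS. In LacZ it had 1537.7, 2000.8, 1501.1 and 1232.2 CPM in TGFB and 908.5, 968.8, 964.8 and 801.4 CPM in SS. No TGFB library reached down to an SS library in either vector. The log2 fold change was 0.64 ± 0.12 in iCre (SE, adjusted p 0.000144, edgeR) and 0.78 ± 0.12 in LacZ (adjusted p 7.84e-06), where it was 0.64 without LacZ TGFB replicate 2.

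Rpl36al, the autosomal copy of the X-linked large-subunit gene Rpl36a (ENSMUSG00000049751, chr12:69182731-69184083), had 60.2, 57.2, 59.4 and 53.3 CPM in iCre TGFB and 33.1, 32.7, 36.4 and 33.3 CPM in iCre SS. In LacZ it had 59.6, 83.4, 64.2 and 56.8 CPM in TGFB and 35.1, 33.8, 38.6 and 35.2 CPM in SS. The 8 TGFB libraries all lay above the 8 SS libraries. Its log2 fold changes, 0.76 ± 0.08 in iCre (adjusted p 1.55e-07) and 0.89 ± 0.08 in LacZ (adjusted p 7.83e-09), had the largest size of the set in both vectors, and the LacZ value was 0.76 without LacZ TGFB replicate 2. Its partner Rpl36a rose by 0.26 in iCre (adjusted p 0.0467) and 0.43 in LacZ (adjusted p 0.00129). The Rpl36a call in iCre was lost in 24 of the 32 fits that left out 1 library (adjusted p up to 0.188, without iCre SS replicate 1), and its LacZ value was 0.28 without LacZ TGFB replicate 2 (adjusted p 0.0121). The difference between the 2 genes was not tested.

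Rpl27, a large-subunit protein mutated in some human Diamond-Blackfan anaemia, had 282.0, 248.2, 254.6 and 221.4 CPM in iCre TGFB and 169.9, 166.5, 190.3 and 160.9 CPM in iCre SS. It had 252.2, 343.7, 264.2 and 227.2 CPM in LacZ TGFB and 180.7, 167.0, 191.9 and 158.4 CPM in LacZ SS. Again the TGFB and SS libraries were apart, and Rpl27 rose by 0.55 ± 0.10 in iCre and 0.64 ± 0.10 in LacZ (adjusted p 7.53e-05 and 7.1e-06). Rpl38, whose loss causes the Tail-short phenotype in mice, rose by 0.45 ± 0.09 and 0.64 ± 0.10 (adjusted p 0.000507 and 4.56e-06). Rpl41, the smallest ribosomal protein, rose by 0.51 in iCre and 0.59 in LacZ (adjusted p 0.000142 and 1.47e-05). Rpl8, which lies close to the peptidyl transferase centre, rose by 0.47 and 0.63 (adjusted p 0.000624 and 1.56e-05), and Rpl14 by 0.45 and 0.61 (adjusted p 0.00175 and 4.51e-05). Without LacZ TGFB replicate 2 the LacZ values were 0.51 for Rpl27, 0.53 for Rpl38, 0.46 for Rpl41, 0.49 for Rpl8 and 0.48 for Rpl14, all still called.

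**Figure D3:**
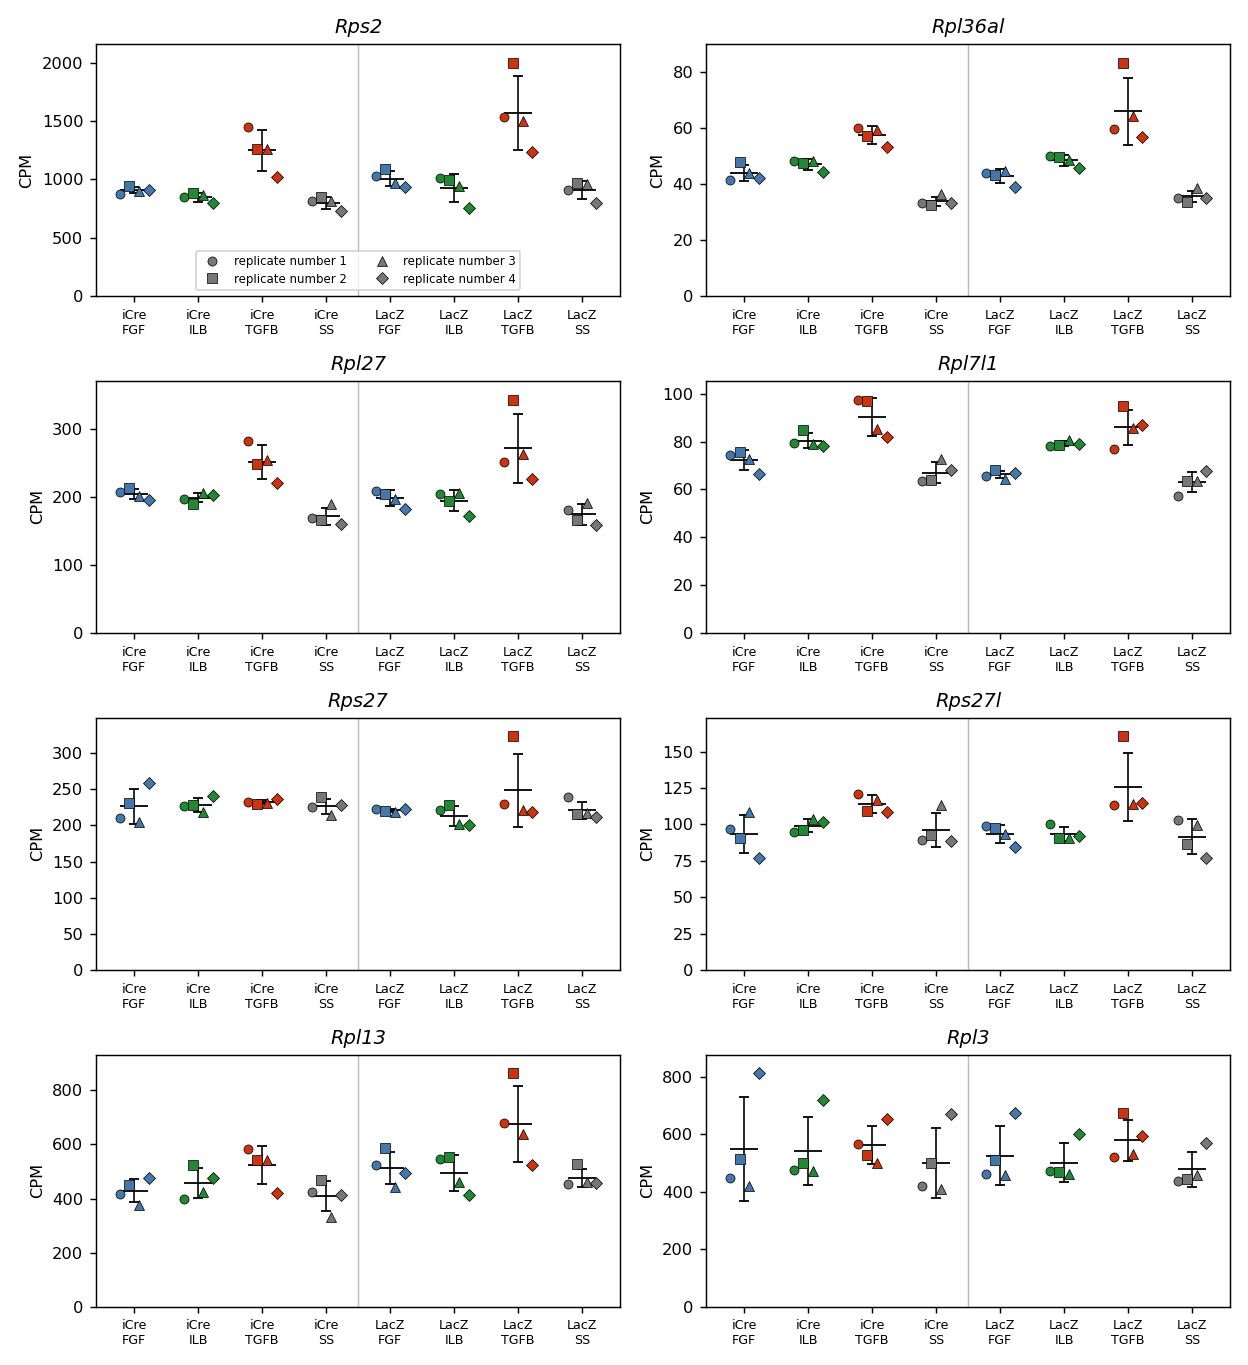
CPM (TMM scaling) of 8 ribosomal protein genes in each of the 32 libraries, by group, with a linear axis from 0 for each gene; symbols are libraries by replicate number, and lines are means with SD (n = 4). Rps2, Rpl36al and Rpl27 are higher in every TGFB library than in any SS library of the same vector, Rps27 overlaps in both vectors, and Rpl3 is highest in the number 4 library of 7 of the 8 groups.

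Among members with known roles beyond the core ribosome, Rps27a, made as a fusion with ubiquitin, rose by 0.44 in iCre and 0.59 in LacZ (adjusted p 0.00132 and 4e-05). Rps6, the substrate of the S6 kinases, rose by 0.31 and 0.39 (adjusted p 0.0075 and 0.000936). Rpl5 and Rpl11, which bind MDM2 together with the 5S rRNA, rose by 0.29 and 0.22 in iCre (adjusted p 0.00522 and 0.0447) and by 0.36 and 0.35 in LacZ (adjusted p 0.000557 and 0.00177). Rpsa, also known as the laminin receptor precursor, rose by 0.45 and 0.53 (adjusted p 0.00185 and 0.000297). The stalk proteins recruit the translational GTPases. Rplp0 rose by 0.41 in iCre and 0.45 in LacZ, Rplp1 by 0.46 and 0.55, and Rplp2 by 0.35 and 0.53, with adjusted p between 0.000233 and 0.0198. Leaving out LacZ TGFB replicate 2 gave LacZ values of 0.44 for Rps27a, 0.29 for Rps6, 0.25 for Rpl5, 0.23 for Rpl11, 0.40 for Rpsa, 0.36 for Rplp0, 0.42 for Rplp1 and 0.37 for Rplp2, all still called. In iCre the call of Rpl11 was lost in 22 of the 32 fits that left out 1 library (adjusted p up to 0.154, without iCre TGFB replicate 1). That of Rplp1 was lost in 3 (up to 0.0796, without the same library) and that of Rplp2 in 1 (0.0523, without iCre SS replicate 2).

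Rps27, a zinc-finger protein of the small subunit (ENSMUSG00000090733, chr3:90212522-90213651), was the member with the smallest difference. It had 232.7, 229.8, 230.7 and 235.9 CPM in iCre TGFB and 225.0, 239.1, 213.7 and 227.6 CPM in iCre SS. It had 229.0, 323.2, 221.8 and 219.2 CPM in LacZ TGFB and 238.8, 215.9, 217.1 and 211.4 CPM in LacZ SS. Apart from the 323.2 CPM of LacZ TGFB replicate 2, all of these libraries lay between 211.4 and 239.1 CPM, with TGFB and SS mixed. The log2 fold change was 0.04 ± 0.09 in iCre (adjusted p 0.78) and 0.17 ± 0.09 in LacZ (adjusted p 0.136), and with total counts its sign turned to −0.19 and −0.03. The LacZ value of Rps27 was 0.02 without LacZ TGFB replicate 2. Its paralog Rps27l, a p53 target in human cells, had 121.3, 109.0, 116.8 and 108.7 CPM in iCre TGFB and 89.3, 92.8, 113.3 and 88.5 CPM in iCre SS. In LacZ it had 113.3, 160.6, 114.2 and 114.5 CPM in TGFB and 102.9, 86.9, 99.9 and 76.9 CPM in SS. Rps27l rose in LacZ by 0.46 ± 0.11 (adjusted p 0.00157) and had a value of 0.25 in iCre (adjusted p 0.0807), where 1 SS library lay among the TGFB ones. These were 0.32 in LacZ (adjusted p 0.0152) and 0.25 in iCre (adjusted p 0.0407), both called, without LacZ TGFB replicate 2.

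Rpl22 and Rpl22l1 are paralogs, and in mouse cells Rpl22 represses Rpl22l1. Rpl22 had 277.3, 244.2, 257.3 and 228.6 CPM in iCre TGFB and 238.8, 239.9, 234.8 and 237.4 CPM in iCre SS, which overlap. Its log2 fold change was 0.08 in iCre (adjusted p 0.486; −0.14 with total counts), and it rose by 0.23 in LacZ (adjusted p 0.038). Without LacZ TGFB replicate 2 the LacZ value was 0.11 (adjusted p 0.27), and the call was lost in 17 of the 32 fits that left out 1 library. Rpl22l1 had a value of 0.27 in iCre (adjusted p 0.203) and rose by 0.45 ± 0.16 in LacZ (adjusted p 0.0272), with 67.1 CPM in LacZ TGFB replicate 2 and 34.5 to 42.8 CPM in the other 3. Without that library its LacZ value was 0.19 (adjusted p 0.288), and the call was also lost without LacZ SS replicate 4. Rpl7l1, found on maturing 60S particles in human cells, rose by 0.43 in iCre and 0.45 in LacZ (adjusted p 1.7e-05 and 6.19e-06). Its partner Rpl7 rose by 0.26 and 0.36 (adjusted p 0.0103 and 0.000501). The LacZ values of Rpl7l1 and Rpl7 were 0.40 and 0.25 without LacZ TGFB replicate 2, both called. Rpl3, which reaches into the peptidyl transferase centre, had 0.17 in iCre (adjusted p 0.515) and 0.28 ± 0.19 in LacZ (adjusted p 0.235; 0.20 without LacZ TGFB replicate 2) and, like Rps27, was not called in either vector.

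**Figure D4:**
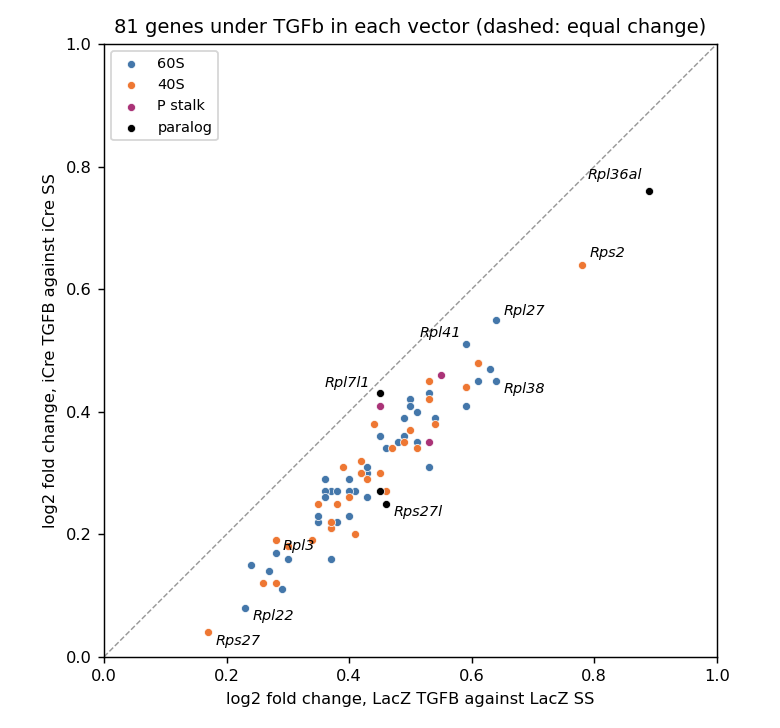
Log2 fold change of TGFB against SS (TMM scaling) in LacZ on the horizontal axis and in iCre on the vertical axis, with each of the 81 genes a point coloured by class and a dashed line of equal change. Rpl36al (0.76 in iCre, 0.89 in LacZ) and Rps2 (0.64, 0.78) lie farthest from 0 and Rps27 (0.04, 0.17) nearest; all points lie below the line, Rps27 falls to −0.19 and −0.03 with total counts, and the median interaction is 0.00 without LacZ TGFB replicate 2.

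FGF and ILB were compared with the same SS libraries as TGFB, so their values share those controls. With FGF 1 member, Rpl36al, rose in iCre, where 1.44% of all genes rose and 0.752% fell. In LacZ 0 of 81 rose (1.64% of all genes rose and 0.919% fell), and DESeq2 called 1. The iCre count was 0 without iCre FGF replicate 2, iCre SS replicate 1 or iCre SS replicate 2. The LacZ count was 1 without LacZ SS replicate 3 or LacZ TGFB replicate 2. An unadjusted p under 0.05 in edgeR was found for 15 members in iCre (2742 of 16760 genes) and 4 in LacZ (2760 of 16760 genes). The medians were 0.17 and 0.14, with 78 and 80 members having a difference above 0, against 49.4% and 48.9% of all genes. FGF libraries lay above all SS libraries for 41 members in iCre (4.55% of all genes) and 6 in LacZ (5.21%). By replicate number the median was 0.14, 0.19, 0.04 and 0.29 in iCre and 0.11, 0.25, −0.01 and 0.21 in LacZ. With the replicate number as a block, 4 members rose in iCre (Rps6 by 0.24, Rpsa by 0.26, Rpl13a by 0.27 and Rpl36al by 0.37) and 1 in LacZ (Rpl36al, adjusted p 0.0232), against 6.56% and 7.02% of all genes.

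With ILB 2 members rose in each vector, Rpl36al and Rpl7l1, and 0 fell. Of all genes 8.88% rose and 6.84% fell in iCre, and 11.1% rose and 8.13% fell in LacZ. The median was 0.14 in iCre, with all 81 members above 0 (70 with total counts), and 0.07 in LacZ, with 72 above 0 (37 with total counts). Among all genes 47.7% and 47.6% were above 0 with TMM, and their shares with total counts are not given. ILB and SS did not overlap for 31 members in iCre (10.6% of all genes) and 2 in LacZ (13.1%). Without LacZ TGFB replicate 2, 6 rose in iCre. Rpl36al had 48.3, 47.6, 48.4 and 44.3 CPM in iCre ILB and 50.2, 49.6, 48.8 and 45.8 CPM in LacZ ILB, all above the 8 FGF and SS libraries of the same vector except for the 47.9 CPM in iCre FGF replicate 2. It rose by 0.48 ± 0.08 in iCre and 0.45 ± 0.08 in LacZ (adjusted p 0.000222 and 0.000367). With FGF it rose by 0.37 ± 0.08 in iCre (adjusted p 0.0189) and had 0.26 ± 0.08 in LacZ (adjusted p 0.0914).

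Rpl7l1 (ENSMUSG00000063888, chr17:46773907-46782672) had 79.3, 84.9, 79.1 and 78.3 CPM in iCre ILB and 63.4, 64.0, 72.7 and 68.0 CPM in iCre SS. It had 78.1, 78.7, 80.7 and 79.1 CPM in LacZ ILB and 57.4, 63.5, 63.6 and 67.8 CPM in LacZ SS. The groups did not overlap in either vector. It rose by 0.26 ± 0.07 and 0.33 ± 0.07 (adjusted p 0.0082 and 0.000985). With FGF its values were 0.11 in iCre and 0.07 in LacZ (adjusted p 0.452 and 0.663).

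Set against each other with TMM scaling and averaged over both vectors, TGFB stood above both other agents. Against FGF 59 members rose and 0 fell (26.1% of all genes rose and 26.0% fell), with a median of 0.22, and against ILB 71 rose and 0 fell (26.5% and 24.1% of all genes), with a median of 0.28. These were 6 and 24 with total counts (15.0% and 17.5% of all genes rose), and 47 and 63 without LacZ TGFB replicate 2. With total counts the share of members that rose lay below that of all genes against FGF and above it against ILB. Rps2 led both, by 0.55 against FGF and 0.66 against ILB (adjusted p 5.66e-06 and 3.58e-07), and Rps27 had 0.10 and 0.12, neither called. Rpl22l1 rose against FGF by 0.37 (adjusted p 0.0082; 0.25, adjusted p 0.033, without LacZ TGFB replicate 2) and had 0.25 against ILB (adjusted p 0.0709). Between ILB and FGF 1 member rose, Rpl7l1 by 0.20 ± 0.05 (adjusted p 0.00187; 13.0% of all genes rose), and 0 fell (12.9% of all genes). Leaving out iCre FGF replicate 2 gave 2 members and leaving out LacZ TGFB replicate 2 gave 4. With the replicate block 4 were called: Rpl36al (0.14) and Rpl7l1 (0.20) rose, and Rps16 (−0.17) and Rpl13a (−0.20) fell, against 37.9% of all genes called.

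Cells given iCre were compared with cells given LacZ in each condition. edgeR called 0 members in each condition (0.0% of all genes), and DESeq2 also called 0. The iCre libraries lay above all LacZ libraries for 1 member in FGF (1.07% of all genes), 3 in ILB (1.22%), 0 in TGFB (0.895%) and 0 in SS (0.77%). In FGF, ILB and SS 0 members had an unadjusted p under 0.05 (335, 251 and 317 of all genes). In TGFB 6 members had one (526 of all genes). The median member differed by 0.03 in FGF, 0.05 in ILB, −0.14 in TGFB and −0.01 in SS. Under TGFB 80 of the 81 were lower in iCre (51.4% of all genes were higher), but by replicate number the medians were 0.07, −0.50, −0.06 and −0.01, and without LacZ TGFB replicate 2 the median was 0.00. The interaction of vector and TGFB was likewise below 0 for all 81 members (51.6% of all genes were above 0), between −0.22 (Rpl34) and −0.02, with 0 called (0.0% of all genes), a median of −0.13, and 0.00 without that library. The interactions with FGF and ILB had medians of 0.03 and 0.06, with 0 called (0.0% of all genes). In each of the 3 interactions 0 members had an unadjusted p under 0.05. Of all genes 67, 93 and 201 had one in the FGF, ILB and TGFB interactions.

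Averaged over the 4 conditions, edgeR and DESeq2 each called 0 members, with 18 of all genes called by edgeR (0.107%). An unadjusted p under 0.05 in edgeR was found for 3 members and for 1153 of all 16760 genes. Rpl13 and Rps2 had the smallest p. Rpl13, a large-subunit protein, was lower in iCre in 15 of 16 pairs of equal condition and number. It had 417.0, 449.7, 375.1 and 474.2 CPM in iCre FGF and 523.9, 588.1, 444.1 and 493.6 CPM in LacZ FGF. It had 399.5, 524.2, 425.3 and 475.9 CPM in iCre ILB, against 547.8, 553.5, 462.7 and 413.8 CPM in LacZ ILB. In iCre SS it had 424.1, 467.5, 331.8 and 414.7 CPM, against 454.3, 526.3, 463.0 and 459.1 CPM in LacZ SS. In iCre TGFB it had 584.9, 543.3, 542.0 and 420.9 CPM, against 677.6, 863.3, 637.5 and 522.9 CPM in LacZ TGFB. The TGFB difference was −0.37 (log2), the largest in size of the 4 conditions, and the 863.3 CPM is LacZ TGFB replicate 2. The groups overlapped in each of these conditions, and number 4 of ILB was the pair that ran the other way.

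The averaged difference was −0.24 ± 0.07 for Rpl13 (adjusted p 0.252) and −0.20 ± 0.06 for Rps2 (adjusted p 0.287), which was also lower in iCre in 15 of 16 pairs. With the replicate number as a block these were −0.23 and −0.19, with adjusted p of 0.0158 and 0.0139, so that both fell (2.83% of all genes were called in that fit). A fit that summed the 4 conditions of each vector and number, with the block, gave adjusted p of 0.286 and 0.367. All these averaged values include LacZ TGFB replicate 2 and are not given without it. Pairs across conditions share the numbering, so the 16 pairs are not 16 independent samples.

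The other genes of the translation machinery were read beside the set, with 20.2% of all genes called higher with TGFB in iCre (median of all genes −0.046) and 23.4% in LacZ (−0.058). Of 54 genes of RNA polymerase I and ribosome assembly, 45 rose and 0 fell with TGFB in iCre (median 0.69) and 48 rose and 0 fell in LacZ (0.83). Nop56, a core protein of box C/D snoRNPs, averaged 89.5 ± 24.5 CPM in iCre TGFB and 32.2 ± 4.56 CPM in iCre SS, and 96.6 ± 10.4 CPM in LacZ TGFB and 29.5 ± 4.74 CPM in LacZ SS (SD, n = 4 each). It rose by 1.47 ± 0.17 in iCre and 1.71 ± 0.17 in LacZ (adjusted p 2.46e-07 and 1.42e-08). Of 33 initiation factors 28 rose and 1 fell in iCre (median 0.53) and 30 rose and 1 fell in LacZ (0.66). Eif4a1, the helicase of the cap-binding complex, rose by 0.79 ± 0.09 and 1.02 ± 0.09 (adjusted p 2.78e-07 and 3.11e-09).

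Of 78 mitochondrial ribosomal protein genes 52 rose and 0 fell in iCre (median 0.33), and 62 rose and 1 fell in LacZ (0.48). Mrpl17 rose by 0.72 ± 0.09 and 0.87 ± 0.09 (adjusted p 1.17e-06 and 4.09e-08). Of 35 aminoacyl-tRNA synthetase genes, which charge tRNAs, 23 rose and 4 fell in each vector (medians 0.69 and 0.72), and Tars, for threonine, rose by 1.63 ± 0.22 and 1.78 ± 0.22 (adjusted p 2.27e-06 and 3.53e-07). With total counts 34 and 41 of the assembly genes, 19 and 25 of the initiation factors and 16 and 37 of the mitochondrial set rose in iCre and LacZ. Without LacZ TGFB replicate 2, 48 assembly genes (median 0.84) and 51 mitochondrial ones (0.38) rose in LacZ.

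Of 18 other mRNAs known to carry a TOP motif, 10 rose and 1 fell in each vector (medians 0.30 in iCre and 0.39 in LacZ). With total counts 4 rose and 5 fell in iCre (median 0.08) and 7 rose and 3 fell in LacZ (0.19). Eef1g, a subunit of elongation factor 1, rose by 0.89 ± 0.09 and 0.99 ± 0.09 (adjusted p 2.77e-08 and 3.11e-09), and Hnrnpa1, an RNA-binding protein of splicing, by 1.29 ± 0.16 and 1.42 ± 0.16 (adjusted p 7.45e-07 and 9.32e-08). Eif4b, a cofactor of Eif4a, fell by 0.55 ± 0.12 in iCre and by 0.62 ± 0.12 in LacZ (adjusted p 0.000733 and 0.00015). Fau, which encodes a ribosomal protein fused to a ubiquitin-like sequence, and Rack1, a scaffold on the 40S subunit, rose by 0.23 and 0.49 in iCre (adjusted p 0.0478 and 0.000135) and by 0.40 and 0.59 in LacZ (adjusted p 0.00086 and 1.03e-05). The Fau call in iCre was lost in 24 of the 32 fits that left out 1 library (adjusted p up to 0.183, without iCre TGFB replicate 1), and its LacZ value was 0.26 without LacZ TGFB replicate 2. Among 20 genes that control ribosomal protein synthesis, 8 rose and 4 fell in iCre and 9 rose and 4 fell in LacZ. Rheb, the activator of mTORC1, averaged 135 ± 24.5 CPM in iCre TGFB and 60.1 ± 6.61 CPM in iCre SS, and 158 ± 23.7 CPM in LacZ TGFB and 62.1 ± 3.73 CPM in LacZ SS (SD, n = 4 each).

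With ILB, where 2 of the 81 ribosomal protein genes rose, 20 of the 54 assembly genes rose and 0 fell in iCre (median 0.29) and 30 rose and 0 fell in LacZ (0.43), beside 8.88% and 11.1% of all genes. Rrs1, needed for the large subunit's maturation, rose by 0.92 ± 0.16 in iCre and 1.09 ± 0.16 in LacZ (adjusted p 0.000184 and 1.83e-05). Nhp2, of box H/ACA snoRNPs, rose by 0.49 ± 0.12 and 0.77 ± 0.12 (adjusted p 0.00584 and 4.42e-05). Of the mitochondrial set 15 rose and 1 fell in iCre and 19 rose and 1 fell in LacZ. With total counts 12 and 22 of the assembly genes and 5 and 6 of the mitochondrial set rose with ILB in iCre and LacZ. With the replicate block 26 and 35 of the assembly genes and 26 and 22 of the mitochondrial set rose. The shares of all genes called with ILB in these fits are not given, so the counts cannot be set against a background. With FGF 1 assembly gene rose in iCre and 2 in LacZ. With the replicate block 11 rose in iCre, and 5 rose and 1 fell in LacZ, and with total counts 0 rose in either vector. The difference between these lists and the ribosomal protein genes was not tested.

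**Figure D5:**
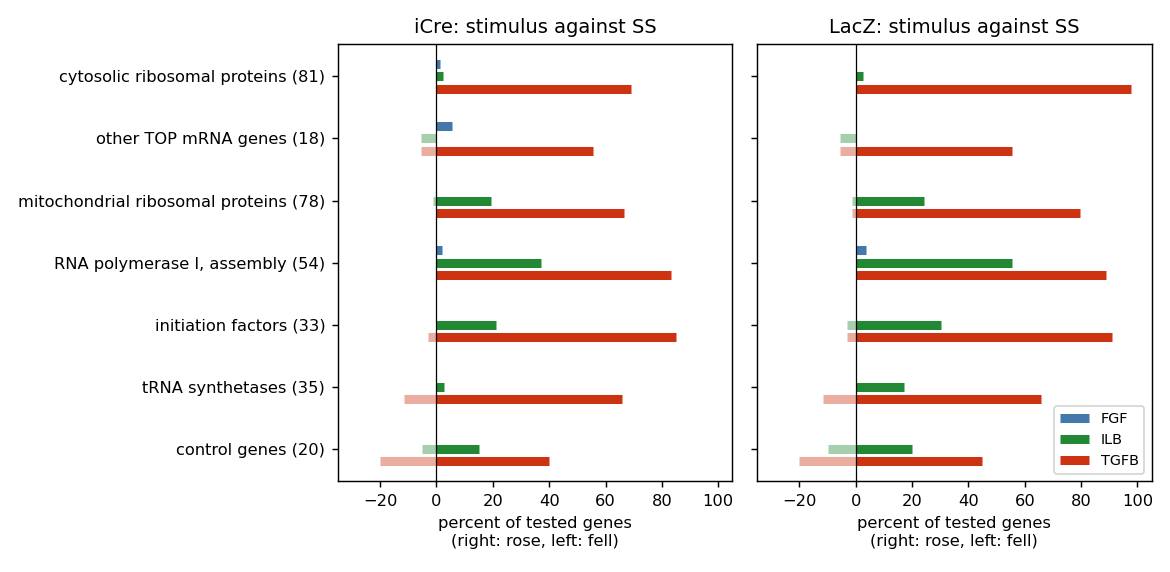
Percent of the tested genes of each list that rose (to the right of 0) or fell (to the left, pale) at an adjusted p under 0.05 against SS of the same vector, for FGF, ILB and TGFB in iCre and LacZ (edgeR, TMM scaling); the number of genes tested is in parentheses. With TGFB 56 and 79 of the 81 ribosomal protein genes rose in iCre and LacZ, and with ILB the bar is longer for the assembly genes (20 and 30 of 54) than for the ribosomal protein genes (2 of 81 in each).

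Some members differed by replicate number in most groups. Rpl3 had 811.6 CPM in iCre FGF, 719.6 in iCre ILB, 651.5 in iCre TGFB and 670.7 in iCre SS in the libraries numbered 4. The libraries numbered 1 to 3 of those groups held 408.5 to 566.6 CPM. Number 4 was the highest of its group for Rpl3 in 7 of 8 groups, LacZ TGFB being the exception with 674.8 CPM in number 2. Rplp1 was lowest in number 4 in 8 of 8 groups, for example 866.4 CPM in iCre TGFB replicate 4 and 1084.1 to 1251.1 CPM in the other 3. Rps2 was lowest in number 4 in 7 of 8 groups.

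Over the 32 libraries the genes outside the set whose log2 CPM ran most like the median member were Eef1b2 (Pearson r 0.953), Rack1 (0.946) and Fau (0.944), a description over libraries that share treatments and numbers. Within the set Rpl3 (0.32), Rpl7l1 (0.64), Rpl22l1 (0.67), Rps27 (0.69) and Rpl13 (0.75) were the least like the others. Ribosomal protein genes have many near-identical pseudogenes, between which reads can be split. In the median member 38.3% of 50-base words of its transcripts occurred in another annotated transcript, over 50% did in 28 members, and 80 of the 81 shared words with a pseudogene. The counts given to those pseudogenes, each taken in full, were 2.5% of the member's own in the median. They were over 10% for 4 members: Rpl7l1 (14.63%), Rpl3 (11.89%), Rpl24 (11.76%) and Rpl41 (10.61%). These percentages do not measure misplaced or lost reads. The size of any such error in a member's values was not tested.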

How the data were processed

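Whole-number read counts per Ensembl gene for the 32 libraries were deposited by the authors as one table. Per the labels' protocols, RNeasy Micro kits gave the RNA, and NEBNext Ultra II the libraries, from poly(A) RNA per the molecule label. FastQC 0.10.1, HTSeq 0.10.0 and the builds mm10 and GRCm38 are named per the submitters' processing notes. Which aligner, strand setting and gene models were used is not given in the sources used here, so a gene and an overlapping partner on the other strand may share counts. Gene names came from GENCODE M21 on GRCm38, which matched 52081 of 55414 IDs and 99.75% of the counts. Groups were taken from the titles.

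The 81 members and the 7 other gene lists were chosen with earlier results of these data known. Members to name were picked by a fixed rule: in each comparison of stimuli up to 6 that rose or fell most, in comparisons of vectors the 4 with the smallest p, all paralogs with their partners, both ends of the level and range orders, and members with a stated role. The differences and tests come from edgeR 4.0.16 (R 4.3.3), with TMM scaling, filterByExpr, all 32 libraries in 1 quasi-likelihood model without covariates, 17 contrasts and Benjamini-Hochberg adjustment over 16760 genes at a threshold of 0.05. Values in log2 CPM used a prior count of 2. DESeq2 1.42.0, other scalings, no filter, blocks and left-out libraries were alternatives. The method was tested on simulated data. A gene of 1 of the lists is not reported here.

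Equal replicate numbers paired the libraries. In the 40 pairs of equal number from groups compared directly with each other, deviations from the group means correlated at 0.153 to 0.857. All were above the limit of 0.1. For 31 of 32 libraries the mean correlation was highest with libraries of their own number. Libraries of the same group carry other numbers, and taking out the group mean lowers their correlation, which favours the own number. The pairing comes from the data, since the labels give numbers with no origin. The main fit and its p-values did not use the pairing. No 2 libraries agreed within sampling noise (the lowest chi-square per degree of freedom over 496 pairs was 9.8).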

Additional observations from a re-analysis of the deposited data

Results flagged for a closer look

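In 18 named genes and 8 groups, 14 of 144 groups of 4 libraries had a library that stood apart from the other 3 by Dixon's criterion, its gap to the nearest being most of the group's range. Chance flags about 1 in 20 groups, and the values are not independent. None of the 8 groups of summed levels was flagged. LacZ TGFB replicate 2 was the library for Rpl41 (679 CPM), Rps27l (161 CPM) and Rps27 (323 CPM), each the highest of its group.

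The other 11 lay in several libraries. The highest of their group were Rpl36al in iCre SS replicate 3 (36.4 CPM), Rpl7l1 in iCre ILB replicate 2 (84.9 CPM), Rpl14 in iCre FGF replicate 2 (482 CPM), Rps27l in LacZ ILB replicate 1 (101 CPM), Rpl36a in iCre FGF replicate 4 (208 CPM), and Rpl7 in iCre TGFB replicate 1 (770 CPM) and iCre SS replicate 2 (629 CPM). The lowest of their group were Rpl38 in iCre ILB replicate 2 (117 CPM), Rps27a in LacZ ILB replicate 4 (271 CPM), and Rpl14 (333 CPM) and Rps16 (295 CPM) in iCre SS replicate 4.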

How the results depend on the processing

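With total counts as the only scaling, members called numbered 6 in iCre and 38 in LacZ for TGFB against SS, 1 for ILB against SS in iCre, 6 for TGFB against FGF, 24 for TGFB against ILB and 3 (all lower) for ILB against FGF. Rps27 turned to −0.19 in iCre and −0.03 in LacZ, and Rpl22 to −0.14 in iCre. The summed level per library averaged 36900 CPM in iCre FGF, 34703 in iCre ILB, 35493 in iCre TGFB, 33100 in iCre SS and 35647 in LacZ FGF. The share of all calls that rose was then 28.9% for TGFB against FGF, 36.7% for TGFB against ILB, 45.8% for LacZ ILB and 46.9% for iCre ILB.

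With the replicate block, called members numbered 4 for FGF in iCre and 1 in LacZ, 4 for ILB against FGF and 2 for iCre against LacZ averaged over conditions (2 also with each pair of vector libraries as a block). For TGFB against SS the block gave 67 in iCre and 80 in LacZ, with no share of all genes given beside them. The block also raised the share of all genes that rose with FGF, as given above. It moved no other count of the 81 members by over 1.5 times, and 0 of 39 named calls were lost. Fits of only the groups compared gave 45 and 53 for TGFB and 0 for FGF in iCre. With the block, an alternative chosen after seeing the data, these gave 14 for ILB in iCre (18.5% of all genes rose). Leaving out all libraries numbered 4 gave 1 member for FGF in LacZ and 1 for the averaged vector comparison, and with the block, also added later, 1 and 2. DESeq2 gave 57 and 79 for TGFB and 1 for FGF in LacZ. Where no share of all genes stands beside them, the counts of these fits cannot be set against a background. Ordered by principal transcript length, another added alternative, 2 of the 5 highest members were shared.

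Leaving out 1 library at a time gave 0 to 1 members for FGF in both vectors, 2 to 6 for ILB in iCre, 35 to 67 for TGFB in iCre, 63 to 79 for TGFB in LacZ and 1 to 4 for ILB against FGF. The shares of all genes called in these fits are not given. Rps27 in iCre TGFB ranged over −0.02, without iCre SS replicate 3, to 0.05.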

Other observations

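Among the genes that control ribosomal protein synthesis, Myc, which drives ribosome biogenesis, averaged 45.4 ± 19.7 CPM in iCre TGFB and 16.9 ± 2.56 CPM in iCre SS, and 47.6 ± 8.62 CPM in LacZ TGFB and 13.5 ± 3.76 CPM in LacZ SS (SD, n = 4 each). Ddit4, an mTORC1 inhibitor induced by stress, averaged 97.4 ± 22.0 and 42.3 ± 7.72 CPM in iCre TGFB and iCre SS, and 103 ± 18.3 and 44.1 ± 4.99 CPM in LacZ TGFB and LacZ SS. Tsc2, another inhibitor of mTORC1, averaged 103 ± 6.79 CPM in iCre TGFB and 132 ± 10.3 CPM in iCre SS, and 98.8 ± 12.4 CPM in LacZ TGFB and 136 ± 3.40 CPM in LacZ SS.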
